A study of Mus musculus with 6 samples.

Results

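The annexins are a family of calcium-dependent membrane-binding proteins, and their transcripts were compared between E0771-HML2 and parental E0771 cells. The list held 9 genes, Anxa1 to Anxa8 and Anxa11. In the whole series 18193 genes had a probe set annotated to a single symbol. Such a probe set was present for 8 of the 9 listed genes. Each gene was represented by the brightest of its probe sets, judged by the average log2(signal + 50) of the 6 arrays. Anxa11 had only a probe set annotated to 3 symbols, its own and those of 2 predicted genes, so no level is given to it. Of the 8 genes, 6 had a mean signal of at least 100 and were tested, and Anxa6 and Anxa8 lay below that filter.

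The HML2 group held 3 cultures of a population of E0771 mouse mammary tumour cells that had been passed repeatedly from the mammary fat pad to the lung of syngeneic C57BL/6 mice and recovered from lung. The parental group held 3 cultures of unselected E0771 cells, a line of the same strain. Neither group carried a further genetic change or treatment in the labels. Both had been grown for 3 days in DMEM with 10% serum, and each culture was put on its own Affymetrix Mouse Genome 430 2.0 array, a chip on which several probe sets can report the same gene. The labels call the cultures biological replicates but do not state how many animals the HML2 cultures trace back to. The p-values therefore speak only of variation among these 6 cultures. HML2 is a selected population grown in dishes, and the arrays give its average: fewer cells that express a gene and less RNA per cell cannot be told apart.

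Annexins bind negatively charged phospholipids through calcium held in a conserved core, and a variable tail at the start of the protein decides which partners they meet. They take part in membrane fusion and traffic, in resealing of a torn plasma membrane and in linking membranes to actin. Several of them work with small calcium-binding proteins of the EF-hand class. Anxa2 joins S100a10 and can hold plasminogen and its activator at the surface of tumour cells. Anxa1 is a ligand of formyl peptide receptors in inflammation, and Anxa5 is the protein used to stain exposed phosphatidylserine on dying cells.

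Anxa7 was the only tested annexin whose difference passed the test in the fit that used all arrays with equal weight and no pairing, and it was higher in HML2 cells. Anxa1 and Anxa2 lay lower on every HML2 array than on any parental array, by 0.19 and 0.32 on the log2 scale, and missed the threshold in this fit. Both passed when arrays were paired by replicate number and with array weights, and Anxa2 also with quantile normalization and without parental replicate 1. Anxa3, Anxa4 and Anxa5 overlapped between the groups. Of all genes tested, 44.4% had groups that did not overlap, 23.8% with HML2 lower. Calls rest on limma with Benjamini-Hochberg adjustment over all 9361 genes tested, at an adjusted p below 0.05, and in this fit 27.2% of genes were called, 12.3% higher and 14.9% lower. Over all genes, 3501 were called with the pairing by number and 5053 with array weights, against 2550 in this fit. In this fit the annexins had 1 called gene of 6. Their median absolute log2 difference was 0.18, against 0.30 over all genes tested, and their median difference was -0.16, against -0.02 over all genes.

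The stretches before the transcription starts of the called gene and of the genes that lay lower on every HML2 array are shown first, because these starts differ in sequence. Each is the 120 bases before a RefSeq start on build GRCm38.p6, read 5′ to 3′ on the gene's strand. Capitals mark TATAAA on the gene's strand, and GGGCGG or TGANTCA on either strand. The windows are chr19:20390672-20390791 on the minus strand for Anxa1, chr9:69453563-69453682 on the plus strand for Anxa2, and chr14:20479942-20480061 on the minus strand for Anxa7, which has 2 starts in the table.
Anxa1: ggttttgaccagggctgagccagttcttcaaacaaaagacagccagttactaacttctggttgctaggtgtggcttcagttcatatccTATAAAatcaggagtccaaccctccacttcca
Anxa2: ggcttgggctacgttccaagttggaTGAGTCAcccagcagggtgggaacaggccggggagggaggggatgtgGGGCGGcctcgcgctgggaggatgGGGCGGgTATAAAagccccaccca
Anxa7: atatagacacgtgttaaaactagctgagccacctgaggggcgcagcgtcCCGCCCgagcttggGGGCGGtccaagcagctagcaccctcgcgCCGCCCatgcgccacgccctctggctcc

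Over the full 250 bases before the start, the letters TATAAA stood once in Anxa1, ending 26 bases before the start, and once in Anxa2, ending 11 bases before it. They stood in none of the other 7 windows found for annexins, which belonged to Anxa4, Anxa5, Anxa7, Anxa8 and Anxa11. Among all 32851 RefSeq windows of that length 7.59% held TATAAA on the gene's strand. GGGCGG, the core of the site bound by Sp1, was found 3 times in Anxa2, 3 times in Anxa11, 4 times in the Anxa7 window shown and once at the other Anxa7 start, and 32.7% of all windows held it on either strand. TGANTCA, the site of AP-1 factors, was found once, in Anxa2, and in 6.75% of all windows. The 250 bases before the Anxa7 start shown had 16 CpG dinucleotides and a GC content of 62.0%, and those before the other Anxa7 start 2 and 42.4%. Anxa1 had 2 and 46.0%, and Anxa2 9 and 62.4%. Sequences were found for 7 of the 9 genes. The matches describe letters and were not tied to the expression values by any test.

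Anxa7, also called synexin, promotes the fusion of membranes in the presence of calcium. Its signals were 5881, 5058 and 4971 on the HML2 arrays, against 3171, 2658 and 2804 on the parental arrays. The lowest HML2 array was above the highest parental array, and replicate 1 was the highest of its group in both. The means were 5303 ± 502 in HML2 and 2878 ± 264 in parental cells (SD, n = 3 each). The log2 difference was 0.87 ± 0.12 (SE), a 1.83-fold higher level with a 95% interval of 1.51 to 2.22, at a limma adjusted p of 0.0016. Of all genes tested, 88.3% had a smaller absolute difference.

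The other probe sets of Anxa7 did not repeat this size. The probe set used above, 1416138_at, and the dimmer 1416137_at are annotated to the same transcript record. The dimmer one had signals of 481, 594 and 621 in HML2 and 735, 611 and 582 in parental cells, with overlapping groups. Its log2 difference was -0.17 ± 0.16 (SE, limma adjusted p = 0.47 over all probe sets tested). A further probe set, 1438764_at, had 336.2, 356 and 348 in HML2 and 188, 336.1 and 277 in parental cells, so that the groups were separated only by the narrowest margin, and its difference was 0.35 ± 0.20 (limma adjusted p = 0.22). With the mean over the gene's probe sets in place of the brightest one, the Anxa7 difference was 0.35 with a limma adjusted p of 0.041. Which transcripts each probe set detects was not tested.

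**Figure D1:**
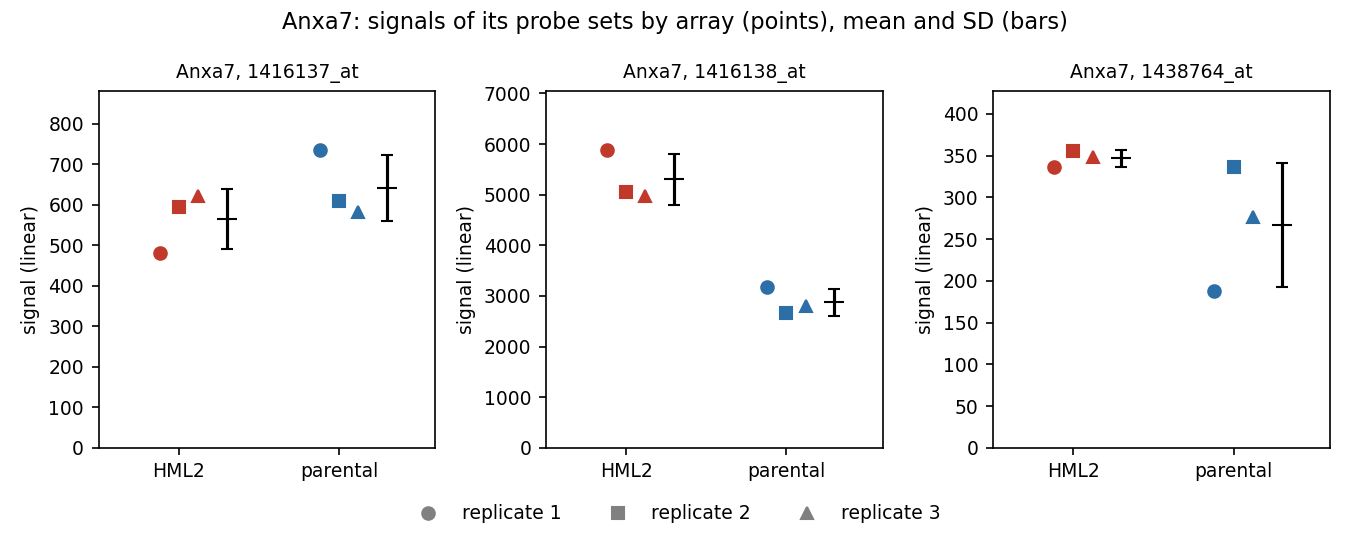
Linear signals of the 3 Anxa7 probe sets on the HML2 arrays (left in each panel, red) and parental arrays (right, blue), 1 point per array, with bars for mean and SD and an axis of its own for each probe set. The groups are far apart for 1416138_at (5303 against 2878 on average), overlap for 1416137_at and nearly touch for 1438764_at.

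Anxa1 and Anxa2 lay lower in HML2 cells on all arrays. Anxa1, an inhibitor of inflammatory signalling and a substrate of the EGF receptor, had signals of 27963, 28079 and 26848 in HML2 cells, against 30469, 33757 and 30638 in parental cells. The HML2 arrays lay close together and below each parental array. The log2 difference was -0.19 ± 0.08 (SE), or 0.87-fold with a 95% interval of 0.77 to 0.99 before adjustment, and it did not pass the test (limma adjusted p = 0.098). With array weights it passed (limma adjusted p = 0.024).

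Anxa2 had signals of 18647, 18778 and 17895 in HML2 cells, against 20602, 26706 and 22315 in parental cells. Parental replicate 2 was the highest array, and the HML2 arrays again varied less than the parental ones, with means of 18439.6 ± 477 and 23208 ± 3149 (SD, n = 3 each). The log2 difference was -0.32 ± 0.11 (SE), or 0.80-fold with a 95% interval of 0.68 to 0.95 before adjustment, and the adjusted p of 0.053 in limma just missed the threshold. Without parental replicate 1 the difference was -0.40 and the adjusted p was 0.040, and without parental replicate 2 they were -0.22 and 0.12. Anxa2 was also called with quantile normalization (-0.37, limma adjusted p = 0.0085) and with array weights (-0.32, limma adjusted p = 0.0038). Groups that do not overlap were common in this comparison, at 44.4% of all genes tested (20.6% with HML2 higher and 23.8% with HML2 lower), and 3 of the 6 annexins were among them, 1 higher and 2 lower.

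The replicate numbers bear on these calls. Arrays with the same number deviated together from their group means by the measure given with the processing, but HML2 replicate 3 did so as closely with parental replicate 2. The labels do not say what the number stands for, so a true pairing is not shown. With the number as a block Anxa1 had a limma adjusted p of 0.015 and Anxa2 one of 0.011, with the differences unchanged in size. That fit called 3501 of 9361 genes, against 2550 without the block. Between arrays of the same number Anxa1 differed by -0.12, -0.27 and -0.19 and Anxa2 by -0.14, -0.51 and -0.32 for replicates 1, 2 and 3 on the log2(signal + 50) scale. Anxa7 had 0.88, 0.92 and 0.81. Anxa5 was also lower within each number, by -0.14, -0.08 and -0.24, but its blocked difference did not pass (limma adjusted p = 0.097).

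**Figure D2:**
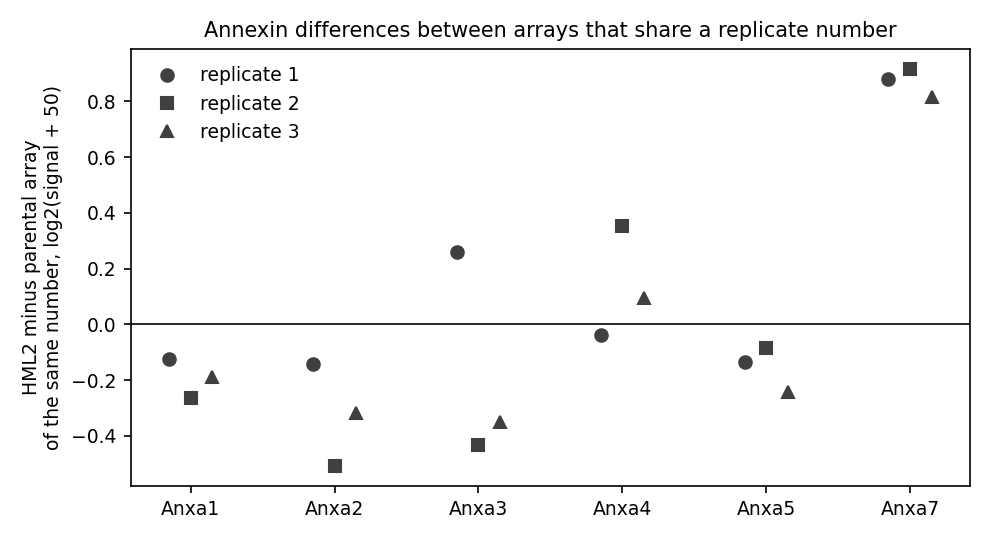
Difference on the log2(signal + 50) scale between the HML2 array and the parental array that share a replicate number, for the 6 tested annexins, with 1 symbol per number. All 3 differences are below 0 for Anxa1, Anxa2 and Anxa5 and lie between 0.81 and 0.92 for Anxa7, while Anxa3 and Anxa4 have values on both sides of 0.

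Further probe sets of these genes were dim. A second Anxa1 probe set had 111, 69.8 and 76.7 in HML2 cells and 148, 261 and 126 in parental cells, also without overlap, with an HML2 mean of 86.0 under the signal filter and a log2 difference of -0.72 ± 0.25 that was not called (limma adjusted p = 0.065). A second Anxa2 probe set had means of 258 in HML2 and 223 in parental cells, with a difference of 0.12 ± 0.33, and a further one averaged 6.22 over all arrays. With the mean over probe sets, Anxa1 had a difference of -0.45 and Anxa2 one of -0.10, neither called (limma adjusted p = 0.057 and 0.70).

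Anxa3, Anxa4 and Anxa5 overlapped between the groups and did not pass the test. Anxa3, known as an inhibitor of phospholipase A2 in cell-free assays, had signals of 7023, 6083 and 5143 in HML2 cells and 5863, 8234 and 6565 in parental cells. The order of the arrays differed between the groups, since replicate 1 was highest in HML2 and lowest in parental cells. Its log2 difference was -0.17 ± 0.16 (limma adjusted p = 0.45), with an interval of -0.54 to 0.19. Without parental replicate 2, the highest array, it was -0.04, without HML2 replicate 3 -0.06, and without HML2 replicate 1 or parental replicate 1 -0.28.

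Anxa4, an annexin of epithelial cell membranes, had 2934, 2798 and 2719.7 in HML2 cells and 3015, 2179 and 2545 in parental cells. The HML2 values lay within the range of the parental ones. The log2 difference was 0.14 ± 0.14 (limma adjusted p = 0.50), with an interval of -0.18 to 0.45. It was 0.02 without parental replicate 2, the lowest array, and 0.25 without parental replicate 1, the highest. The other Anxa4 probe sets had larger differences of 0.49 ± 0.19 and 0.33 ± 0.18 that were not called either (limma adjusted p = 0.091 and 0.21).

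Anxa5 had 12594.5, 11813 and 10423.5 in HML2 cells and 13835, 12526 and 12327 in parental cells, with HML2 replicate 1 above parental replicates 2 and 3. The log2 difference was -0.15 ± 0.10 (limma adjusted p = 0.31), and its interval of -0.39 to 0.08 leaves room for a decrease of the size seen in Anxa2. It was -0.08 without HML2 replicate 3 and -0.10 without parental replicate 1. These misses do not show equal levels. With array weights Anxa3 and Anxa5 were called lower (limma adjusted p = 0.029 and 0.038), in a fit that called 5053 of 9361 genes, 2631 of them lower.

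**Figure D3:**
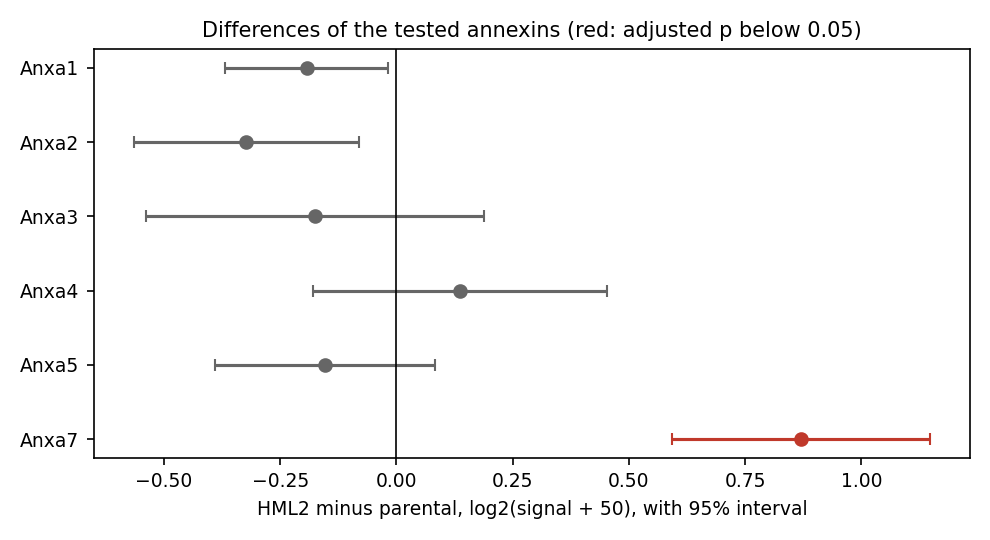
Difference between HML2 and parental cells on the log2(signal + 50) scale for the 6 tested annexins, with unadjusted 95% intervals from limma, and called genes in red. Anxa7 stands at 0.87 (0.59 to 1.15), and the other 5 lie between -0.32 and 0.14.

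Anxa6 and Anxa8 were dim. Control probe sets for a bacterial gene, which gauge background, read 1.97 to 36.2. Anxa6, which has a doubled core and brings the Ras inhibitor Rasa1 and protein kinase C alpha to membranes, had signals of 33.6, 56.3 and 28.3 in HML2 cells, against 74.5, 53.7 and 111 in parental cells. The groups overlapped at replicate 2, and 2 of the 3 HML2 arrays were in the range of the bacterial controls (two-sided exact permutation p = 0.2, where 3 against 3 arrays allow no p below 0.1). Another Anxa6 probe set of nearly the same brightness had 34.9, 10.7 and 29.0 in HML2 cells and 124, 67.9 and 78.8 in parental cells, without overlap. In a fit without signal filter the Anxa6 difference was -0.53 and was not called (limma adjusted p = 0.20).

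Anxa8, an annexin with anticoagulant activity in the test tube, had 1.29, 39.4 and 50.1 in HML2 cells and 19.0, 4.63 and 21.1 in parental cells. The groups overlapped. Another Anxa8 probe set had 26.5, 32.7 and 31.0 in HML2 cells and 6.88, 2.70 and 10.2 in parental cells, without overlap. All of these values lie in or near the range of the bacterial controls. The probe set shared by Anxa11 and predicted genes had 1197, 1123 and 1005 in HML2 cells and 929, 639 and 770.9 in parental cells, and what part of it is Anxa11 cannot be read from the array. The remaining family genes Anxa9, Anxa10 and Anxa13 were below the signal filter as well. Anxa13 had 3.00, 14.8 and 2.83 in HML2 cells, in the range of the bacterial controls, against 35.2, 40.2 and 34.8 in parental cells, near the upper end of that range. In the fit without signal filter Anxa13 was called lower (-0.62, limma adjusted p = 0.026), and Anxa8, Anxa9 and Anxa10 were not called. That fit called 2164 of 18193 genes, 1241 of them lower.

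**Figure D4:**
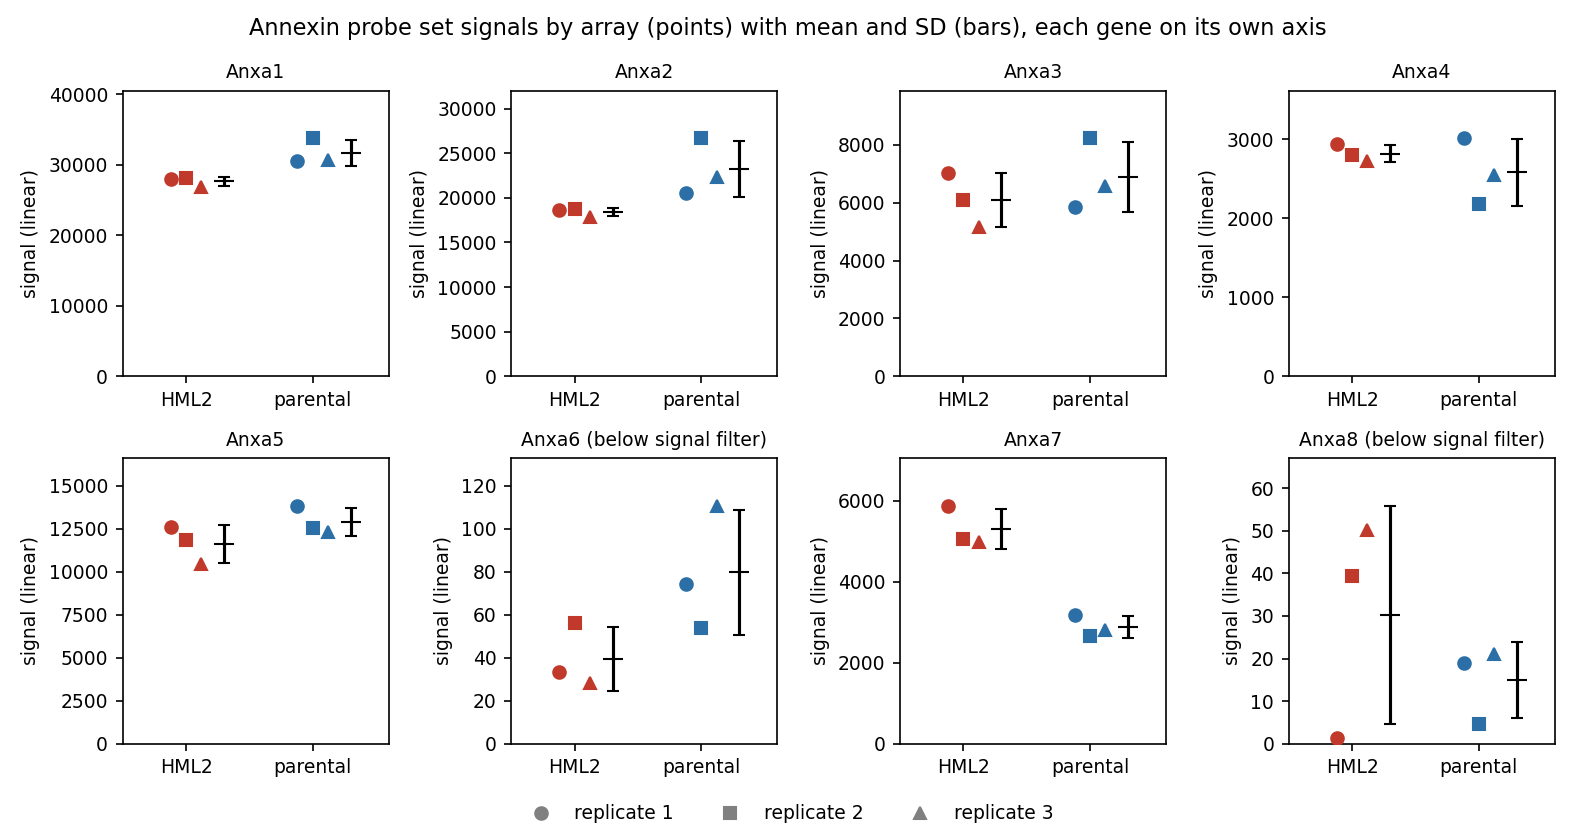
Linear signals of the 8 annexins by array, HML2 left (red) and parental right (blue), with 1 symbol per replicate number, bars for mean and SD (n = 3), and an axis of its own for each gene. For the brightest probe set of each gene, Anxa1 and Anxa2 lie slightly lower and Anxa7 clearly higher on all HML2 arrays. Anxa6 and Anxa8 stay at signals of up to 111 and 50.1 on those probe sets. Other probe sets of Anxa7 did not repeat the size of its difference.

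Among the genes that work with annexins, 47 were listed and 34 tested, of which 6 were called higher and 9 lower in HML2 cells. Over all genes 12.3% were called higher and 14.9% lower. Without Pdcd6ip, whose probe sets were called in opposite directions, 5 of 33 were higher and 9 lower. Tgm2, among the higher genes, passed the signal filter only through the HML2 arrays, and without it as well 4 of 32 were higher and 9 lower. The median log2 difference of the 34 genes was -0.14, against -0.02 over all genes. The count of 15 called genes was 8 without HML2 replicate 3, 9 without parental replicate 3 and 25 with array weights. Of the EF-hand partners, Sri encodes sorcin, a calcium sensor that binds Anxa7, and it was higher, with 7347, 6678.5 and 6168 in HML2 cells, against 3082, 2618 and 2743 in parental cells. The groups were far apart, the log2 difference was 1.24 ± 0.12 (limma adjusted p = 2.7e-04), and the other Sri probe sets that were tested had differences of 0.63 and 0.69, of which the first was called (limma adjusted p = 0.012 and 0.054). The Sri probe set with 0.69 passed the signal filter only through the HML2 arrays (mean 171, against 86.6 in parental cells). S100a4, which binds Anxa2, had 2193, 3484 and 3427 in HML2 cells, against 16102.5, 9491 and 10883 in parental cells, and fell by 1.98 on the log2 scale (limma adjusted p = 7.4e-04).

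S100a10 is the subunit that ties Anxa2 into a tetramer. It had 18374, 19060.2 and 17573.5 in HML2 cells, against 20675, 20021 and 18278 in parental cells, and the difference of -0.10 ± 0.09 was not called (limma adjusted p = 0.43). S100a6, which binds several annexins, had a difference of -0.21 ± 0.10 that was not called (limma adjusted p = 0.15). It was called with the replicate block and with quantile normalization (limma adjusted p = 0.037 and 0.045). Pdcd6, a calcium sensor that binds Anxa7 and Anxa11, had a difference of 0.09 ± 0.12 (limma adjusted p = 0.60). With array weights it was 0.21 and called (limma adjusted p = 0.041), and with an array left out it ranged from 0.04 (without HML2 replicate 2) to 0.17 (without HML2 replicate 1), not called. The EF-hand list had 1 higher and 1 lower gene of 5 tested, beside 12.3% and 14.9% of all genes.

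In the plasma membrane repair list 9 genes were tested, and Vps4a was higher, Ahnak and Chmp4b were lower, and Pdcd6ip was called in both directions by different probe sets. Without Pdcd6ip the list had 1 higher and 2 lower genes of 8 tested, beside 12.3% and 14.9% of all genes. Ahnak, a giant scaffold protein bound by the Anxa2 complex, had 4419, 3647 and 3585 in HML2 cells and 5129, 5065 and 4995 in parental cells, and fell by 0.38 on the log2 scale (limma adjusted p = 0.039). Chmp4b, a subunit of the membrane-severing ESCRT-III filament, fell by 0.35 (limma adjusted p = 0.047). Vps4a, the enzyme that takes these filaments apart, rose by 0.54 ± 0.12 (limma adjusted p = 0.012). Its paralog Vps4b had -0.30 ± 0.11 (limma adjusted p = 0.068, and 0.032 with the block), and was also called without HML2 replicate 1 (-0.36, limma adjusted p = 0.023), with quantile normalization, with array weights and with the mean over probe sets.

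The calls of Ahnak and Chmp4b were lost when HML2 replicate 2, HML2 replicate 3 or any parental array was left out, with adjusted p-values in limma of 0.092 to 0.14 for Ahnak and 0.054 to 0.16 for Chmp4b. They were also lost without signal filter, with median centring and without intensity trend, and that of Chmp4b with the mean over probe sets. The call of Vps4a was lost without HML2 replicate 3 (0.51, limma adjusted p = 0.058). Pdcd6ip, which encodes the ESCRT adaptor ALIX, was called higher by its brightest probe set (0.50, limma adjusted p = 0.028), while another of nearly equal brightness and a dimmer one were called lower (-0.65 and -0.53, limma adjusted p = 0.0081 and 0.029), so no direction is given to the gene.

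Of 7 tested genes for the exposure and recognition of phosphatidylserine, the lipid that Anxa5 binds, 1 was higher and 1 lower, beside 27.2% of all genes called in either direction. Plscr1, a scramblase-family protein, had 2261, 1778 and 1923 in HML2 cells, against 942, 716 and 729.5 in parental cells, a difference of 1.27 ± 0.16 (limma adjusted p = 9.0e-04), and its second tested probe set gave 1.35. Atp11a, a flippase that returns the lipid to the inner leaflet, had 864, 894 and 1068 in HML2 cells and 1878, 1163 and 1529.5 in parental cells and fell by 0.65 (limma adjusted p = 0.034). Its call was lost without parental replicate 1 (-0.49, limma adjusted p = 0.11), parental replicate 3, HML2 replicate 2 or HML2 replicate 3, and without signal filter. The calcium-gated scramblase gene Ano6 had a difference of -0.05 ± 0.15.

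For plasminogen activation at the cell surface, the process in which Anxa2 takes part, 1 of 4 tested genes was called, beside 27.2% of all genes. The urokinase receptor gene Plaur had 1717, 1349 and 1477 in HML2 cells, against 510.3, 565 and 389.6 in parental cells, and rose by 1.55 ± 0.17 (limma adjusted p = 5.3e-04). Plat, the tissue-type activator that binds the Anxa2 complex, had 1371, 701 and 732 in HML2 cells and 1526, 1415 and 1569 in parental cells, and its difference of -0.72 ± 0.24 just missed the threshold (limma adjusted p = 0.052, and 0.019 with the block). HML2 replicate 1 was far above the other HML2 arrays, and without it the difference was -1.02 (limma adjusted p = 2.7e-04). The plasminogen receptor gene Plgrkt had -0.55 ± 0.23 (limma adjusted p = 0.11, and 0.017 with the block), and -0.75 without HML2 replicate 1 (limma adjusted p = 0.015). Both genes were also called with array weights. The urokinase gene Plau went the other way, with a difference of 0.44 ± 0.17 that was not called (limma adjusted p = 0.095). It was called higher with quantile normalization and with array weights (limma adjusted p = 0.047 and 0.019). With the mean over probe sets it was 0.27 and not called (limma adjusted p = 0.29).

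Of 8 tested membrane traffic and signalling partners 1 was higher and 5 were lower, where 27.2% of all genes were called in either direction and 14.9% lower. Prkca, the protein kinase C alpha gene, had 567, 744 and 698 in HML2 cells, against 1819, 1442 and 1894 in parental cells, and fell by 1.30 (limma adjusted p = 9.2e-04). A dimmer Prkca probe set had a difference of 0.44 (limma adjusted p = 0.096), and the mean over probe sets was -0.43 and not called (limma adjusted p = 0.051). Cav1, the main coat protein of caveolae, had 7572, 7858 and 5946 in HML2 cells and 11362, 10827.5 and 10862 in parental cells and fell by 0.64 (limma adjusted p = 0.0063). Sec31a, a coat protein of vesicles leaving the endoplasmic reticulum, fell by 0.56 (limma adjusted p = 0.011).

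The remaining lower genes of that list, named after their values were seen, were Cavin1 (-0.51), a caveolar coat gene, and Rasa1 (-0.40), a Ras inhibitor (limma adjusted p = 0.028 and 0.039). The call of Cavin1 was lost without HML2 replicate 3, parental replicate 2 or parental replicate 3, and that of Rasa1 without HML2 replicate 2, HML2 replicate 3, parental replicate 1 or parental replicate 3. The Rasa1 call was also lost without signal filter, with median centring and without intensity trend. Tgm2, a calcium-dependent crosslinking enzyme, was higher, with 1359, 502 and 450.2 in HML2 cells, against 85.2, 114 and 68.5 in parental cells. HML2 replicate 1 was well above the other HML2 arrays. The parental mean of 89.4 was under the signal filter, so the gene was tested only because HML2 was high, and in the fit without filter it was called too (limma adjusted p = 0.0059). The difference was 2.40 ± 0.37 with all arrays and 1.93 without that array (limma adjusted p = 0.0024 and 1.7e-04). In the list of Anxa1 receptors and prostanoid enzymes, 4 of 6 genes had a probe set with 1 symbol, and the others were not measured. Only Pla2g4a passed the signal filter. This gene encodes the phospholipase that Anxa1 can inhibit, and it had 6451, 2019.7 and 2777 in HML2 cells and 3438, 2819.9 and 3661 in parental cells, with a difference of 0.01 ± 0.36 (limma adjusted p = 0.99). Without HML2 replicate 1, the highest array, the difference was -0.46 (limma adjusted p = 0.047).

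**Figure D5:**
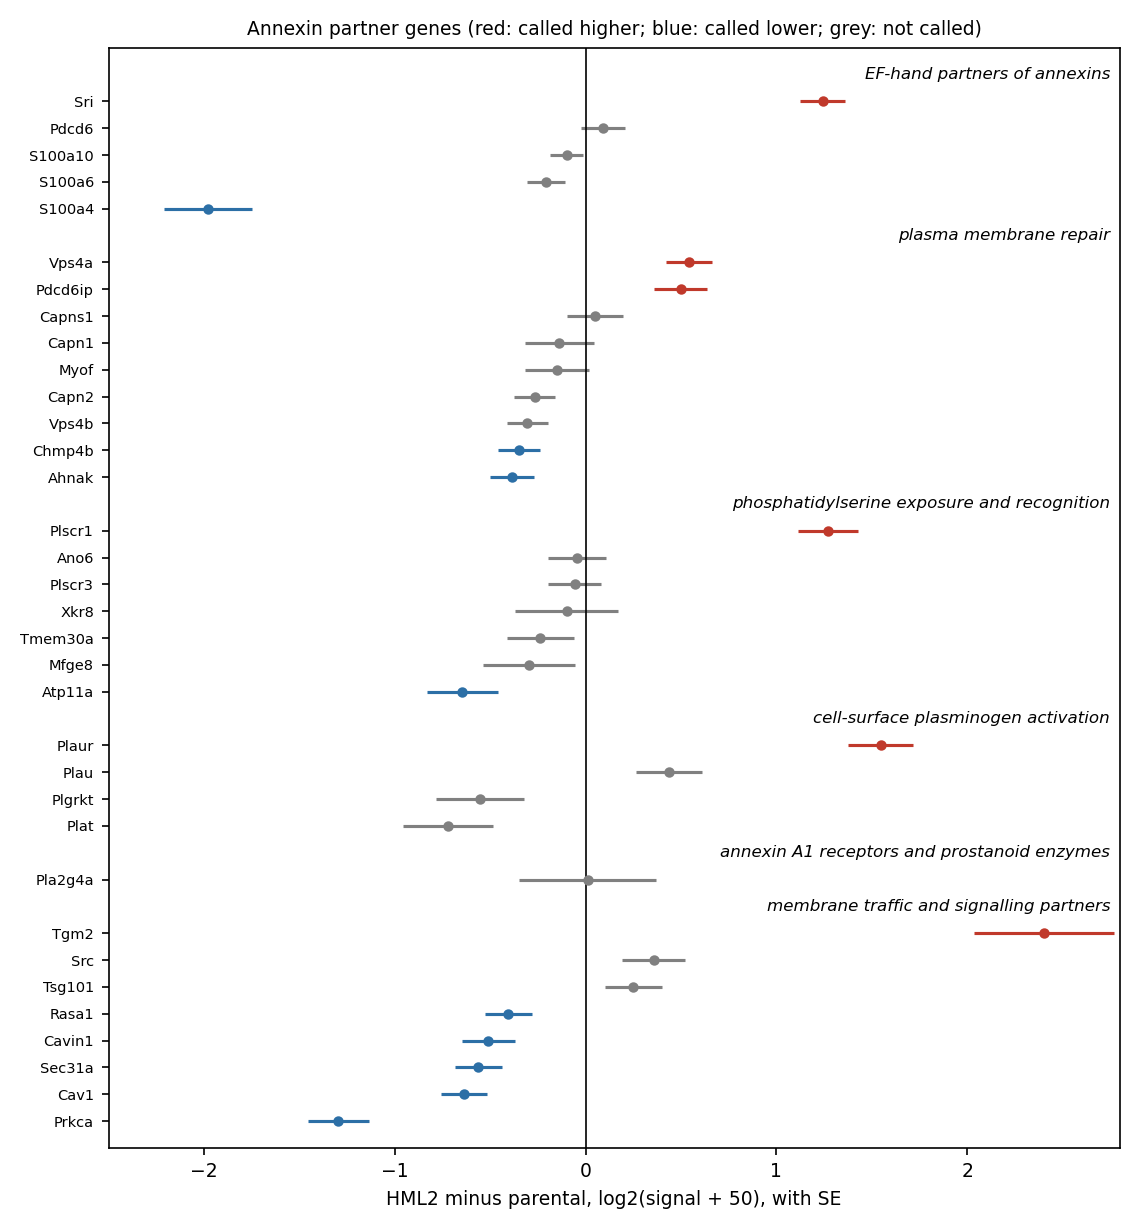
Differences between HML2 and parental cells on the log2(signal + 50) scale for the 34 tested genes of the partner lists, with SE bars, red for called higher, blue for called lower and grey for not called. Tgm2, Plaur, Plscr1 and Sri lie above 1, and S100a4 and Prkca below -1. The point of Pdcd6ip shows its brightest probe set, against which another probe set was called.

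The genes whose signals followed Anxa7 most closely over the 6 arrays were the integrin gene Itga3, the chemokine gene Cxcl1 and the gelatinase gene Mmp9, with Pearson correlations of 0.999, 0.997 and 0.997 on the log2(signal + 50) scale. Such values are common with 6 arrays in 2 groups, and 390 genes had a correlation above 0.95. Of the 3 tested genes on each side of Anxa7 on chromosome 14, the adjacent Mrps16, a mitochondrial ribosomal protein gene, was higher (0.45, limma adjusted p = 0.021), and Fam149b, Dnajc9, Mss51, Ppp3cb and Usp54 were not called. Over the 316 tested genes of chromosome 14, 11.4% were called higher and 13.0% lower.

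The share of probe sets at a signal of 100 or more was 39.6% to 40.1% on HML2 arrays and 40.5% to 41.5% on parental arrays. The 3' to 5' ratio of beta-actin control probe sets, a gauge of RNA integrity, was 1.36 to 1.39 on HML2 arrays and 1.41 to 1.53 on parental arrays. Neither measure overlapped between the groups. The same ratio for Gapdh overlapped, at 0.770 to 0.816 on HML2 arrays and 0.799 to 0.803 on parental arrays. The part of these measures in the annexin differences was not tested. The epithelial keratin gene Krt8 was higher in HML2 cells (4175 ± 650 against 1095 ± 60.3, SD, n = 3 each). Krt18 and Cdh1 were below the signal filter, and Epcam had means of 83.5 in HML2 and 133 in parental cells. The Epcam difference was -0.45 (limma adjusted p = 0.12), and it was called with array weights (-0.49, limma adjusted p = 0.022) and with the mean over probe sets (-1.14, limma adjusted p = 0.0044). Of 6 leukocyte markers 4 were below the filter, Ptprc averaged 8.71 in HML2 and 5.24 in parental cells, and the summed signals were 716 to 776 in HML2 and 463 to 640.3 in parental cells. Of these, Cd14 was called higher and Lyz2 lower. Lyz2 had means of 78.9 in HML2 and 192 in parental cells and passed the filter only through the parental arrays. It was called without filter too (limma adjusted p = 0.022). Of 4 lung epithelial markers 3 were below the filter, with sums of 127 to 213 in HML2 and 136 to 222 in parental cells, and of 4 endothelial markers all were, with sums of 107 to 135 in HML2 and 61.2 to 136 in parental cells. The lung marker that passed, Sftpb, had means of 120 in HML2 and 83.2 in parental cells and passed only through the HML2 arrays. Its difference of 0.34 was not called (limma adjusted p = 0.26). Of 5 fibroblast markers 3 were below the filter, with sums of 1149 to 2109 in HML2 and 2455 to 4491 in parental cells, carried by Pdgfra and Pdgfrb. Pdgfra was called lower (-1.09, limma adjusted p = 0.0052). A dimmer Pdgfra probe set had -0.05 (limma adjusted p = 0.88), and with the mean over probe sets the difference was -0.57 (limma adjusted p = 0.021). Pdgfrb had -1.18 (limma adjusted p = 0.053, and 0.0020 with the block) and was also called with array weights and without HML2 replicate 1 (-1.63, limma adjusted p = 0.0014). The part of these markers in the annexin and partner differences was not tested.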

How the data were processed

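The authors deposited a linear intensity for each probe set on each array. It was computed with MAS5, per the submitters' processing notes, whose settings were not given in the sources used here. The trimmed mean of the deposited signals (2% removed at each end) was 500.003 on all 6 arrays, so a change in total messenger RNA cannot be seen. Of 45101 probe sets, 34945 had 1 symbol in the array annotation, 932 had several and 9160 had none listed, besides 64 controls. Symbols were updated through RefSeq (assembly GRCm38.p6), which held 34741 of them. Promoter windows came from RefSeq of that build.

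The analysis used log2(signal + 50). A probe set entered if its signal averaged 100 or more, and the brightest one stood for each gene (9361 genes). Differences are HML2 minus parental and understate the change of dim genes. The test was limma 3.58.1 under R 4.3.3, with lmFit, eBayes with intensity trend, no covariate and Benjamini-Hochberg adjustment. Arrays of the same replicate number had correlations of 0.45, 0.34 and 0.24 between their deviations from the group means, all above 0.1. The main fit does not use the number, and the fit with the number as a block is an alternative. HML2 replicate 3 correlated as closely with parental replicate 2 (0.24), and the other unmatched pairs had -0.38 to 0.089. The fit with the number as a block is given where it changes a call. The labels do not say what the number stands for.

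Partner genes stood in 6 lists from general knowledge. The text names all annexins, for each list up to 4 called genes with the largest differences, filled up to 2 with the brightest, and the 3 most alike genes and the 3 neighbours on each side of a called annexin. S100a6, S100a10, Pdcd6, Vps4b, Ano6, Plgrkt, Cavin1, Rasa1, Krt18, Cdh1, Ptprc, Anxa9, Anxa10 and Anxa13 are outside this rule and were named after their values were seen, which also decided whose promoters are shown. Plau is outside this rule too and was named after its values were seen. The members and lists were chosen with earlier results of these data known. Of the 47 partner genes, 41 had a probe set with 1 symbol, and the others are not analysed here.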

Additional observations from a re-analysis of the deposited data

How the results depend on the processing

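The sign of each of the 6 tested annexin differences was kept in all 16 alternatives, though leaving out an array moved Anxa3 (-0.28 to -0.04), Anxa4 (0.02 to 0.25) and Anxa5 (-0.21 to -0.08) by over 1.5 times (other offsets, filters, normalizations, variance models, probe set choice, array weights, the replicate block and each array left out). Anxa7 was called in all 16, with differences of 0.35 (mean over probe sets) to 0.94. Of the annexins, 2 were called with quantile normalization (Anxa7 and Anxa2, at -0.37), 3 with the replicate block and 5 with array weights (all but Anxa4), against 1 in the main setting, and 1 to 2 when an array was left out. Over all genes, array weights gave 5053 calls, 2422 higher and 2631 lower, against 2550, 1155 and 1395 in the main setting. The replicate block gave 3501 calls, 1670 higher and 1831 lower, and quantile normalization gave 2544. Leaving out an array gave 1385 to 3422 calls, 590 to 1577 higher and 795 to 1845 lower. The fewest came without parental replicate 3, and without HML2 replicate 3 there were 1671 calls and 715 higher. Among partner genes 15 were called, 25 with array weights and 8 to 21 with an array left out. The 8 were found without HML2 replicate 3 and the 9 without parental replicate 3. The block changed the call of no tested annexin other than Anxa1 and Anxa2, and among tested partner and marker genes of S100a6, Vps4b, Plat, Plgrkt and Pdgfrb only. With the mean over probe sets Pdcd6ip turned to -0.16, since its probe sets go opposite ways. Of the uncalled genes named, Ano6 turned to 0.046 with array weights and 0.051 with the mean over probe sets, and ranged from -0.19 (without HML2 replicate 2) to 0.074 (without HML2 replicate 1). Pla2g4a turned to -0.40 with array weights and -0.10 without parental replicate 2, and ranged from -0.46 (without HML2 replicate 1) to 0.36 (without HML2 replicate 2). Calls lost when an array was left out concerned Ahnak, Pdcd6ip, Chmp4b, Atp11a, Rasa1, Cavin1 and Vps4a. The cause of the other changes was not tested. Anxa6 and Anxa8 are limited by signals close to background.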
